A study of Mus musculus with 2 samples.

Results

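The genes described here are the clustered histone genes of the mouse, read as peaks of open chromatin in regulatory T (Treg) cells. A peak was taken as a member when the gene that the authors assigned to it carried a clustered histone symbol (Hist1h, Hist2h, Hist3h or Hist4h, or the newer forms H1c to H4c, H2ac and H2bc). Of the 19680 peaks of transketolase-deficient (cKO) Treg cells 23 were members, and of the 34440 peaks of wild-type (WT) Treg cells 26 were. These peaks carried 27 symbols, of which 19 occurred in both lists, 4 in the cKO list alone and 4 in the WT list alone. Hist2h symbols were on no peak of either list.

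Open chromatin was profiled by ATAC-seq, in which the Tn5 transposase inserts sequencing adapters into accessible DNA, in 50000 CD4+CD25+YFP+ cells sorted from spleen and lymph node of untreated C57BL/6 females at 7 weeks of age. The cKO library came from Foxp3cre/+ TKTfl/fl mice and the WT library from Foxp3cre/+ mice, so both carried the Cre allele and it was driven by Foxp3, a gene on the X chromosome that is expressed in Treg cells. The labels call the females chimeric, and sorting on YFP selects the Cre-expressing cells. There was 1 library for each genotype, the number of mice behind each is not given in the sources used here, and read depth is unknown. Each statement below therefore compares 2 libraries without a replicate check, and where a list lacks a peak, a signal below the threshold of the peak caller is possible.

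Clustered histone genes supply the bulk of the H1, H2A, H2B, H3 and H4 proteins that package new DNA. They are short genes without introns in most cases, sit in tight groups and are transcribed mainly in S phase. Their transcripts end in a stem-loop in place of a poly(A) tail, and the coactivator Npat links them to cyclin E and Cdk2. H4 promoters carry a site II element bound by Hinfp, H2B promoters an octamer bound by Oct1 (Pou2f1), and H1 promoters an upstream H1 box. Tkt is an enzyme of the non-oxidative pentose phosphate pathway, which is connected to the supply of ribose for nucleotides. The study's title places the comparison within work on how this pathway controls Treg cell function.

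The promoters that anchor the account are shown as the 150 bases before the transcription start site (TSS), read 5′ to 3′ on the strand of the gene, from RefSeq on build GRCm38.p6. Capitals mark matches to the histone promoter motifs searched on both strands. The first set has, for each histone type, the member with the highest scoring WT promoter peak. It consists of Hist1h1c on the plus strand at chr13:23738657-23738806, Hist1h2ak on the minus strand at chr13:21753913-21754062, Hist1h2bh on the minus strand at chr13:23543445-23543594, Hist1h3e on the minus strand at chr13:23562386-23562535 and Hist1h4c on the minus strand at chr13:23698459-23698608.
Hist1h1c: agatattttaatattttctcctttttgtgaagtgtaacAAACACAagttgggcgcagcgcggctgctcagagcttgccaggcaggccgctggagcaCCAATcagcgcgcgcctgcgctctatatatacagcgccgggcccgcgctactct
Hist1h2ak: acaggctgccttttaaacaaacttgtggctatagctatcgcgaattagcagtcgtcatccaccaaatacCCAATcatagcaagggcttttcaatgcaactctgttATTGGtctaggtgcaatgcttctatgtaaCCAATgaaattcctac
Hist1h2bh: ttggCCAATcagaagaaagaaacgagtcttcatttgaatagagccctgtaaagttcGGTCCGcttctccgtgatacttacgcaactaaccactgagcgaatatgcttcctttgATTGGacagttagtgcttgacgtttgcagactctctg
Hist1h3e: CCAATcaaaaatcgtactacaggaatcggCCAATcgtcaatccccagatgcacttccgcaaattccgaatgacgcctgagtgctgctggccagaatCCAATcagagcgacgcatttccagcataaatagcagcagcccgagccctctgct
Hist1h4c: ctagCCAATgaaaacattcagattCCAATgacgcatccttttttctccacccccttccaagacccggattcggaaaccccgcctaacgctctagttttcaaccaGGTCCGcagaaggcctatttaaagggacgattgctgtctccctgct

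The second set has the 4 members that had a peak in the WT list alone. It consists of Hist1h3g on the plus strand at chr13:23535268-23535417, Hist1h4b on the plus strand at chr13:23756787-23756936, Hist1h4m on the plus strand at chr13:21811596-21811745 and Hist4h4 on the minus strand at chr6:136804432-136804581.
Hist1h3g: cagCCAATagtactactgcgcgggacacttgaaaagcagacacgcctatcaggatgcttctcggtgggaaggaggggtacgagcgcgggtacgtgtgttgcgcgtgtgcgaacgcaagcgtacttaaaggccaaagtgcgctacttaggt
Hist1h4b: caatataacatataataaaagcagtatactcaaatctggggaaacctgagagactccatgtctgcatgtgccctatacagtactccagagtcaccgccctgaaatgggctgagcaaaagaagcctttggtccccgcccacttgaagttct
Hist1h4m: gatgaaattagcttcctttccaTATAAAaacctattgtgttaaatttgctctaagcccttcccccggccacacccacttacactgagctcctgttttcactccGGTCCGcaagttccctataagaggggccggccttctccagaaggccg
Hist4h4: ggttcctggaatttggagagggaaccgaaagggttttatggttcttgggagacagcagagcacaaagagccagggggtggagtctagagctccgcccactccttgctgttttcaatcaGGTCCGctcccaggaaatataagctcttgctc

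In the first set, the whole window lay inside a peak of both lists for Hist1h2ak, Hist1h2bh, Hist1h3e and Hist1h4c, while for Hist1h1c 81 of the 150 bases lay inside the cKO peak and all 150 inside the WT peak. In the second set, the Hist1h3g window had 0 bases in a cKO peak and 150 in a WT peak, and the Hist1h4b window had 0 bases in a cKO peak and 76 in a WT peak. The Hist1h4m window lay outside the peaks of both lists, since its WT peak began 71 bp after the TSS. The Hist4h4 window lay wholly inside a peak in both lists, but the authors assigned that peak to the predicted gene Gm43969.

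The motifs were counted in the whole RefSeq window of 300 bases, 250 before and 50 after the TSS, for 62 histone genes with an entry (63 windows, since Hist1h2be has 2) and for all 32851 windows of the table. GGTCCG, the core of H4 site II, was found in 11 of 12 H4 windows, in 1 of 17 H2B and 1 of 10 H3 windows and in none of the 6 H1 and 18 H2A windows, against 8.25% of all windows. Hist1h4a was the H4 gene without it, and it was the gene with TTTCCCGC, an E2F core, found in 1.07% of all windows and in no other histone window. CCAAT was present in all 6 H1, 18 H2A, 17 H2B and 10 H3 windows and in 3 of 12 H4 windows, against 37.4% of all windows. The octamer ATTTGCAT was in 7 of 18 H2A and 7 of 17 H2B windows and in no H1, H3 or H4 window, against 1.74% of all. Where an H2A and an H2B gene point away from each other with close TSSs, their windows overlap and a match can be counted for both. The H2A and H2B counts are therefore not independent. AAACACA, the H1 box, was in 5 of 6 H1 windows and in 4 of the other 57 histone windows, against 7.18% of all. TATAAA was in 35 of the 63 windows, against 13.6% of all. CCAAT and GGTCCG matches overlapped in 1 window, that of Hist1h3i, and no other pair of motifs overlapped in a histone window. A match describes letters and not an occupied site.

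All 6 Treg cell genes examined (Cd4, Il2ra, Foxp3, Ikzf2, Ctla4 and Cd3e) had a promoter peak in both lists. Of the genes of cells outside the gate that are reported here, Cd8a, Ms4a1, Itgam, Ncr1 and Hba-a1 had no peak in either list, Cd8b1 had a promoter peak in both, Cd79a a peak of another class in both, Lyz2 one in cKO alone and Spi1 one in WT alone. Tkt had a promoter peak in cKO and in WT, which does not check the deletion because the floxed part is not given in the sources used here. The authors' peak score moves with depth and its unit is not named, so each score was read as a percentile, the share of peaks in the same list with the same or a lower score.

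Every cKO histone peak lay over a WT peak by at least 1 bp, while 7 of the 26 WT histone peaks had no cKO peak over them. The share was 23 of 23 for the cKO peaks (100%, Wilson 95% interval 85.7 to 100%), against 97.6% of all cKO peaks. For the WT peaks it was 19 of 26 (73.1%, 53.9 to 86.3%), against 56.1% of all WT peaks. Most members were promoter peaks, the authors' class within 3 kb of a TSS, with 21 of 23 in cKO and 22 of 26 in WT, so the members were also set against this class. Among WT promoter peaks 17 of 22 histone peaks (77.3%, 56.6 to 89.9%) had a cKO partner, against 74.3% of all 15339. Both WT intervals include the share of all peaks they were set against. The intervals cover counting error only.

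Shared histone peaks lay mostly high in the WT list, as did shared promoter peaks of all genes. With the WT list cut by score into 10 equal bins, numbered 1 for the weakest to 10 for the strongest, 16 of the 17 histone promoter peaks in bins 8 to 10 had a cKO partner, against 98.3% of all WT promoter peaks in those bins. In bins 1 to 7 there were 5 histone promoter peaks and 1 had a partner, namely Hist1h4i, against 49.0% of all. The exception in the upper bins was the Hist1h4d promoter peak, in bin 8, where 95.8% of all WT promoter peaks were shared.

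**Figure D1:**
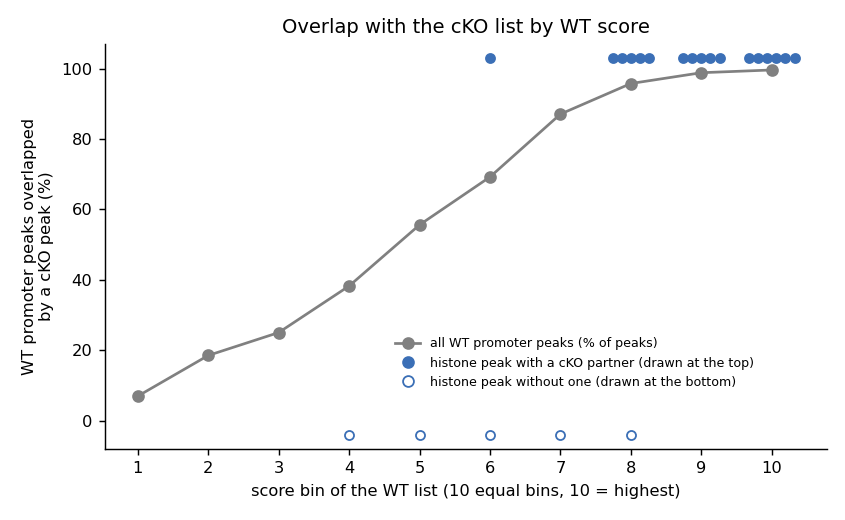
The x axis gives the 10 score bins of the WT list and the y axis the percentage of WT promoter peaks overlapped by a cKO peak. The grey line is all WT promoter peaks, at 6.97% in bin 1 and 99.6% in bin 10, and each blue point is 1 histone promoter peak, filled at the top if it had a cKO partner (17) and open at the bottom if not (5).

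H1, the linker histones, had 4 member peaks in cKO and 4 in WT, on the same 4 genes, and all overlapped. Hist1h1c was second in score among promoter peaks with a histone symbol in both lists, with a score of 132.5 and percentile 99.5 in cKO and a score of 300.1 and percentile 98.7 in WT. Its peak was 1464 bp wide in cKO and 1895 bp in WT. Hist1h1a had the widest histone peak of either list, 2941 bp at percentile 94.97 in cKO and 3046 bp at percentile 93.7 in WT. That peak also spanned the TSS of Hist1h4a, which lies on the opposite strand, and held the whole body of Hist1h3a in both lists. Hist1h1d stood at percentile 68.4 in cKO and 79.4 in WT; the authors placed it 1 to 2 kb from a TSS, although the peak spanned the RefSeq TSS in both lists. The Hist1h1b peak, at percentile 67.4 in cKO and 84.9 in WT, covered 65.4% of the gene body in cKO and 90.8% in WT without reaching the RefSeq TSS in either.

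H2A, a core histone that pairs with H2B, had 8 member peaks in cKO and 4 in WT, and this difference came from the gene names. Hist1h2ac, Hist1h2ad, Hist1h2ag and Hist1h2ah carried the symbol in cKO alone, but a WT peak lay over each, assigned to Gm44350, Gm44359, Gm44486 and Gm44390. The Hist1h2ac peak was at percentile 98.2 in cKO and the Gm44350 peak over it at 96.9 in WT, with widths of 1701 bp in cKO and 2004 bp in WT. Hist1h2ag was at percentile 74.3 and 1759 bp wide in cKO, under a WT peak at percentile 87.1 and 1914 bp wide. Hist1h2ad was 807 bp wide at percentile 58.6 in cKO, under a WT peak of 2180 bp at percentile 76.9. Hist1h2ah was 905 bp wide at percentile 54.1 in cKO, under a WT peak of 1354 bp at percentile 81.5. The 4 genes named in both lists were Hist1h2ak (percentile 86.7 in cKO, 92.4 in WT), Hist1h2an (58.2 in cKO, 86.9 in WT), Hist1h2ae (64.4 in cKO, 80.4 in WT) and Hist1h2aj (57.3 in cKO, 75.7 in WT). RefSeq labels the last a pseudogene, and its peak spanned the TSS of Hist1h2bm.

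H2B had 3 member peaks in each list, all overlapping. Hist1h2bh was the highest scoring histone peak of both lists, with a score of 170.5, rank 29 of the cKO list (percentile 99.9), and a score of 329.1, rank 251 of the WT list (percentile 99.3). Its width was 1674 bp in cKO and 1887 bp in WT, and the peak also touched Hist1h3f. Hist3h2ba, the one member of the chromosome 11 cluster, had a peak of 898 bp at percentile 60.2 in cKO and 1202 bp at percentile 86.2 in WT. The peak assigned to Hist1h2bl was not at its promoter. It was a distal intergenic peak, 4887 bp from the TSS in cKO and 4844 bp in WT by the authors' distance, at percentile 96.7 in cKO and 97.6 in WT. The promoter of Hist1h2bl itself lay in another peak of both lists, named Gm44367.

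H3 had 2 member peaks in cKO and 3 in WT. Hist1h3e was strong in both lists, at percentile 94.6 in cKO and 98.3 in WT, with widths of 1311 bp in cKO and 1414 bp in WT. Hist1h3i had the narrowest histone peak of the cKO list, 518 bp at percentile 60.2, against 954 bp at percentile 73.6 in WT. Hist1h3g had no cKO peak, against a WT peak of 540 bp at percentile 40.2. The closest cKO peak lay 3158 bp away from it.

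H4, the core histone that pairs with H3, held 6 of the 7 WT peaks without a cKO partner. It had 6 member peaks in cKO, all of them shared, and 12 in WT, of which 6 were shared (50.0%, 25.4 to 74.6%). Among WT promoter peaks 5 of 9 H4 peaks were shared, and 12 of the 13 peaks of the other types. No replicate is at hand to test this split, and at these counts the H4 interval of 26.7 to 81.1% includes the 74.3% of all WT promoter peaks. The unshared H4 peaks also had low to middling scores, from percentile 20.7 to 76.9 of the WT list; the part of score in the split was not tested.

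The unshared H4 promoter peaks were those of Hist1h4d, Hist1h4b, Hist1h4m and a second peak of Hist1h4c. Hist1h4d had a WT peak of 695 bp at percentile 76.9 over its TSS, and the closest cKO peak lay 2980 bp away. Hist1h4b had the narrowest histone peak of the WT list, 424 bp at percentile 66.0, which is below the 465 bp of the narrowest cKO peak of any gene. Hist1h4m had a WT peak of 1664 bp at percentile 52.2. The second Hist1h4c peak, 2 to 3 kb from the TSS, was 451 bp wide at percentile 34.8 of the WT list. The other 2 were not promoter peaks. A peak assigned to Hist1h4d was an intron peak of 906 bp at percentile 53.4 of the WT list, inside a long Hist1h2be model, and the peak assigned to Hist4h4 was distal intergenic, 1163 bp wide, at percentile 20.7.

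The shared H4 peaks ranged widely in strength. Hist1h4c was at percentile 90.1 with 1136 bp in cKO and at 95.1 with 1312 bp in WT. A further peak given to Hist1h4d by the authors, of the 5′ UTR class, was at percentile 94.8 with 1408 bp in cKO and at 91.4 with 1619 bp in WT, and it spanned a TSS of Hist1h2be and not that of Hist1h4d. Hist1h4j was at percentile 64.6 in cKO and 81.6 in WT, Hist1h4n at 50.1 in cKO and 75.3 in WT, and Hist1h4f at 48.6 in cKO and 72.2 in WT. Hist1h4i was the weakest histone peak of the cKO list, with a score of 4.06 at percentile 9.53 and 587 bp, against a score of 35.7 at percentile 56.0 and 631 bp in WT. Its TSS lay inside both peaks.

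**Figure D2:**
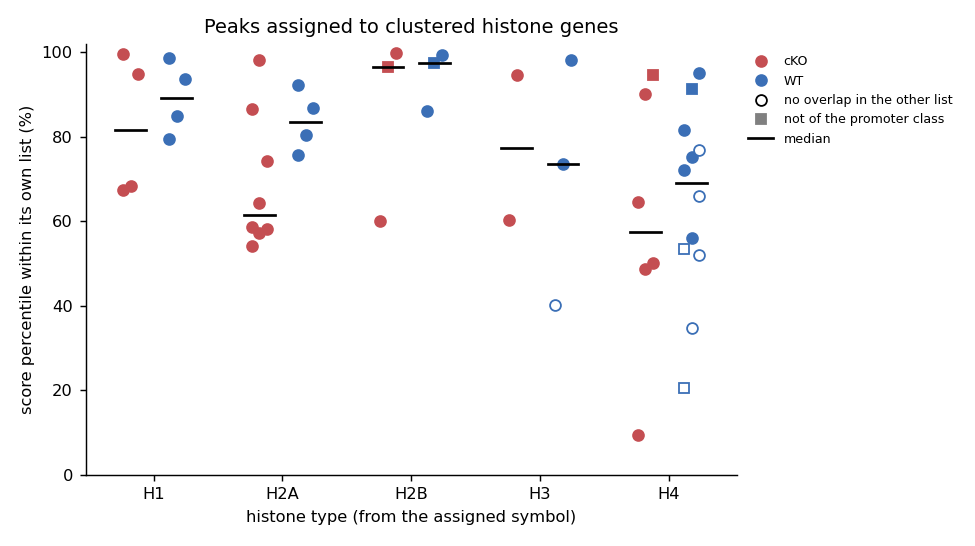
The y axis gives the score percentile of each peak within its own list and the x axis the histone type, with cKO peaks in red to the left of WT peaks in blue; circles are promoter peaks, squares other classes, open symbols peaks without an overlap in the other list, and black bars medians. The open symbols are 6 H4 peaks and 1 H3 peak of the WT list, all below percentile 77.

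The histone promoter peaks were spread over the range of scores. Their median percentile was 64.6 in cKO, against 64.1 for all cKO promoter peaks, and 79.9 in WT, against 71.2 for all WT promoter peaks. The top 2 score bins held 33.3% of the histone promoter peaks in cKO, against 29.8% of all promoter peaks. In WT they held 50.0%, against 37.8%. These differences were not tested. In cKO 6 of the 21 were in score bin 10, against 1739 of 11370 promoter peaks, and in WT 6 of 22 were, against 3136 of 15339. Those 6 were Hist1h2bh, Hist1h1c, Hist1h2ac, Hist1h1a, Hist1h3e and Hist1h4c in cKO, and in WT the same names with Hist1h2ak in place of Hist1h2ac, whose WT peak carried another symbol. All of them lie on chromosome 13, as do all but 1 of the histone promoter peaks of each list. Under other names, peaks over histone TSSs on chromosomes 3 and 11 were also in bin 10 of both lists. Percentiles of lists of different lengths do not show a change of a peak between the genotypes.

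Over all classes the median width of the histone peaks was 1136 bp in cKO (518 to 2941 bp) and 1182.5 bp in WT (424 to 3046 bp), against 974 bp for all cKO peaks and 977 bp for all WT peaks. Within the promoter class the medians were close to the background, at 1026 bp in cKO against 1047 bp for all cKO promoter peaks, and at 1128 bp in WT against 1139 bp for all WT promoter peaks. In 17 of the 19 pairs in which the same symbol overlapped, the cKO peak was narrower than the WT peak. The median ratio of cKO to WT width was 0.887 (0.543 to 1.03). Over all 19378 overlapping pairs it was 0.839, and 84.1% were narrower in cKO, so the narrower cKO peaks were a trait of the whole list. The lowest ratio was that of Hist1h3i. The wider cKO peaks were Hist1h4f (955 bp in cKO, 925 bp in WT) and Hist1h4j (1548 bp in cKO, 1532 bp in WT).

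**Figure D3:**
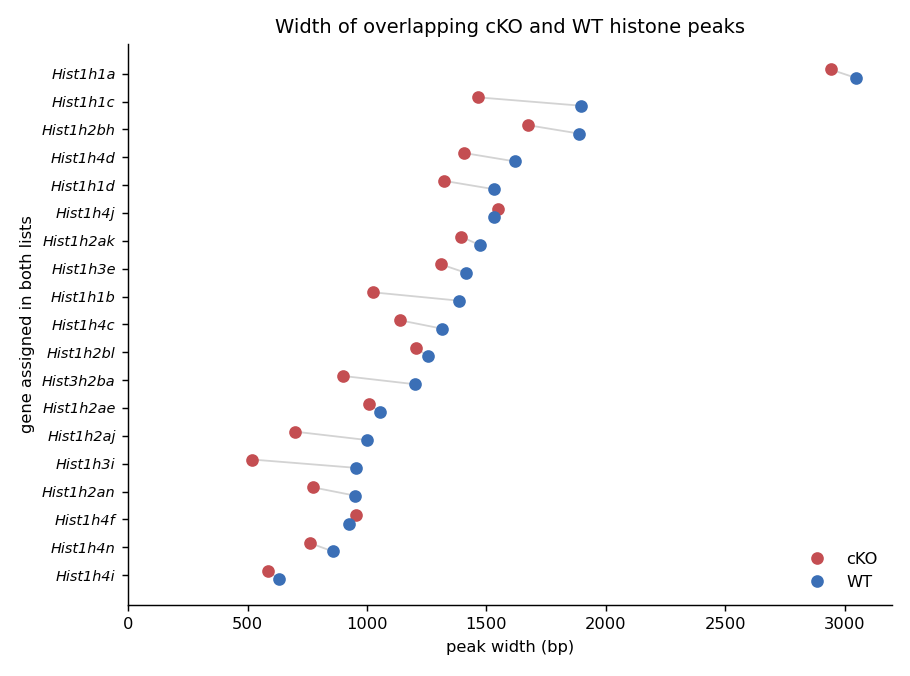
The x axis gives peak width in bp and each row is a histone gene with overlapping peaks in both lists, with the cKO peak in red above the WT peak in blue. The red point lies to the left of the blue one in 17 of the 19 rows, and Hist1h1a stands apart at 2941 bp in cKO and 3046 bp in WT.

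Because the authors gave 1 symbol to each peak, the histone promoters were also counted by position, as RefSeq histone genes whose TSS lay inside a peak of any name. RefSeq lists 71 such genes, with 57 on chromosome 13 (Hist1), 10 on chromosome 3 (Hist2), 3 on chromosome 11 (Hist3) and 1 on chromosome 6 (Hist4h4), and 62 have a promoter entry. It labels 4 of the 71 as pseudogenes (Hist3h2bb, Hist1h2aj, H2ac5-ps and Hist1h2al), none of them with an entry. The TSS lay inside a cKO peak for 43 of the 62 (69.4%, 57.0 to 79.4%) and inside a WT peak for 48 (77.4%, 65.6 to 86.0%). Over all 17492 protein-coding genes with an entry the shares were 42.9% in cKO and 49.2% in WT. Of the 48 genes covered in WT, 43 were also covered in cKO (89.6%, 77.8 to 95.5%), against 86.4% of all protein-coding genes covered in WT. The interval of 77.8 to 95.5%, too, includes the share of all genes. No histone gene was covered in cKO alone. Such genes were rare among all protein-coding genes too, since 7434 of the 7504 covered in cKO were also covered in WT. The intervals take the genes as independent, but many of them lay under 1 peak with a neighbour, so the intervals are likely too narrow.

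The peak over the TSS had a name other than a clustered histone symbol for 16 of the 43 genes in cKO and for 24 of the 48 in WT. Some of these were among the strong peaks. The peak over Hist1h4h was named Gm11335 and stood at percentile 97.9 in cKO and 99.0 in WT, and the one over Hist1h1e and the upstream TSS of Hist1h2be, named Gm11398, stood at 99.0 in cKO and 96.6 in WT. Hist3h2a lay under a peak named Gm44313, at 96.0 in cKO and 95.7 in WT. Hist4h4 lay under Gm43969, at 72.4 with 983 bp in cKO and 86.4 with 1512 bp in WT. At the other end, the peak named Gm44484 over Hist1h2ab and Hist1h3b was at percentile 3.80 in cKO and 33.6 in WT.

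The Hist2 cluster was covered under other names too. A peak named Bola1 spanned the TSSs of Hist2h2ab and Hist2h2ac, at percentile 88.1 in cKO and 87.8 in WT. A peak named Gm20628 spanned those of Hist2h3b and Hist2h2bb, at 93.9 in cKO and 96.4 in WT, and one named Gm20634 that of Hist2h2aa1, at 85.6 in cKO and 89.8 in WT. Hist2h2aa2, Hist2h3c1 and Hist2h3c2 had no peak over the TSS in either list.

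By type, the TSS was covered in cKO and in WT for 4 and 4 of 6 H1 genes, 13 and 13 of 18 H2A genes, 13 and 13 of 16 H2B genes, 6 and 8 of 10 H3 genes, and 7 and 10 of 12 H4 genes. The 5 genes covered in WT alone were thus 2 H3 and 3 H4 genes. For Hist1h4n the gap was small, since its cKO peak ended 9 bp short of the TSS. The TSS of Hist1h3d lay 1135 bp from the cKO peak of Hist1h2ad, in a WT peak that continued over both genes. For Hist1h3g, Hist1h4d and Hist1h4b the closest cKO peak was 3586, 3499 and 3957 bp from the TSS.

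Coverage was also counted for the parts of the chromosome 13 cluster. The counts are small, neighbouring genes share peaks, and differences between the parts were not tested. Genes were divided into blocks where neighbours lay over 100 kb apart. The first block had 10 of 18 genes covered in cKO and 11 in WT, the second all 5 in both lists, and the third, the largest, 20 of 26 in cKO and 24 in WT. The fourth block holds the testis histone genes Hist1h2aa and Hist1h2ba, and neither had a peak over the TSS in either list. The testis H1 gene Hist1h1t, within the third block, had none either.

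The remaining genes without a peak over the TSS in either list were Hist1h1b, whose peak lay on the gene body, Hist1h2af, and a group in the first block made up of Hist1h4k, Hist1h4m, Hist1h2ao, Hist1h2bq, Hist1h2ap and Hist1h2br. The promoter windows of Hist1h2bq and Hist1h2br were identical over all 300 bases. No other pair of histone windows reached 90% identity when compared base by base from the TSS without shifts. Copies whose annotated TSSs differ in position would be missed, so this does not show that other genes lack near-identical copies. Reads from identical copies cannot be given to 1 of them, and how such reads were treated is not given in the sources used here; their part in the missing peaks was not tested.

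**Figure D4:**
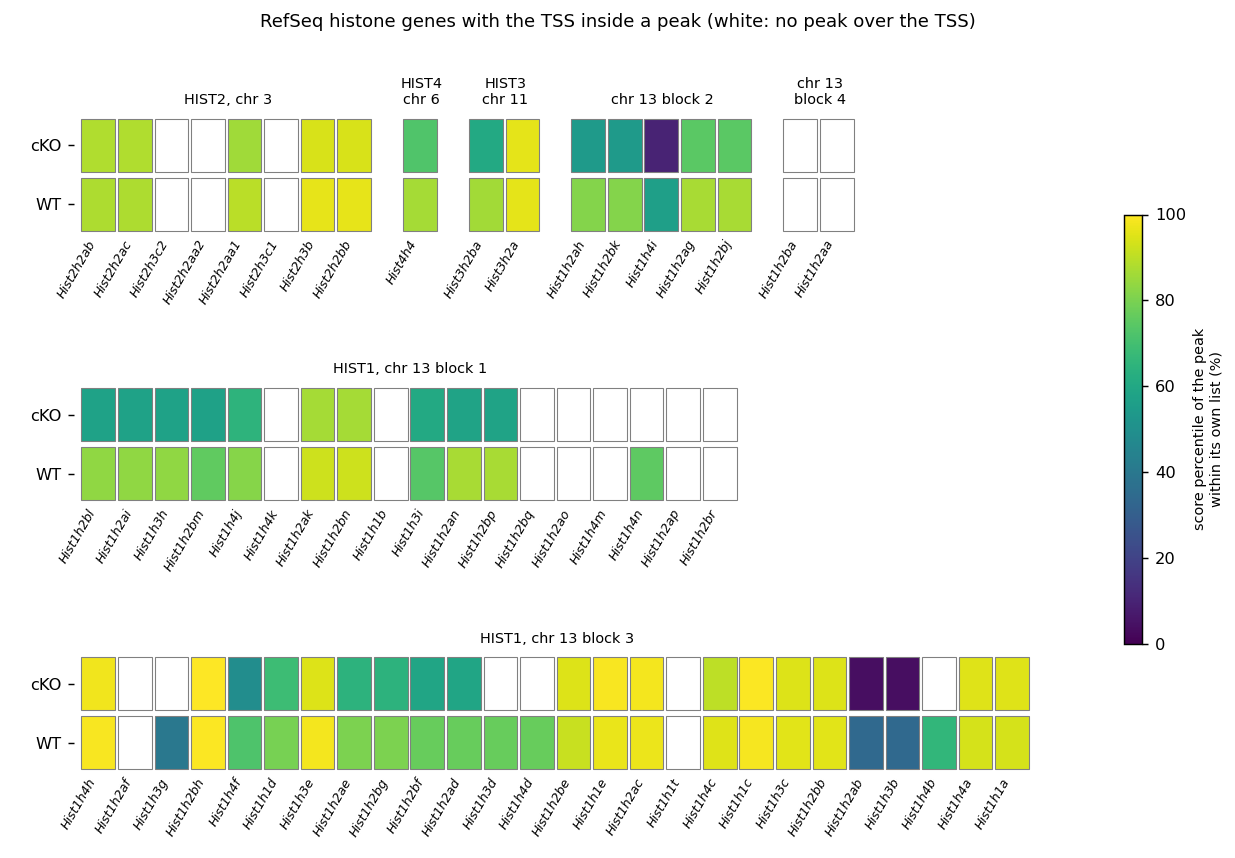
Each tile is a RefSeq histone gene in its order along the chromosome, with cKO above WT; the colour gives the score percentile, within its own list, of the peak that spans the TSS, and white means no such peak. Coloured tiles number 43 in cKO and 48 in WT, and neighbouring genes under 1 peak share a colour.

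Many of these peaks spanned the TSS of more than 1 histone gene. The matching share among peaks of other genes was not taken. The 43 genes covered in cKO lay under 30 peaks and the 48 in WT under 34 peaks. Counting only genes with a promoter entry, 13 peaks of each list spanned the TSSs of 2 or 3 histone genes, 27 genes in cKO and 28 in WT. In 9 of the 13 peaks of each list genes pointed away from each other. Genes without an entry, such as Hist1h3a inside the Hist1h1a peak, were left out. The TSSs of Hist1h2ak and Hist1h2bn were 164 bp apart, those of Hist1h2ah and Hist1h2bk 178 bp, those of Hist1h2ae and Hist1h2bg 180 bp, those of Hist1h2an and Hist1h2bp 240 bp and those of Hist1h2ag and Hist1h2bj 249 bp, each an H2A and an H2B gene under 1 peak in both lists. By this count, peaks over several genes had a median width of 1665 bp in cKO and 1859 bp in WT. Peaks over 1 gene had 1324 bp in cKO and 1357 bp in WT. A wider peak can span more TSSs, so this contrast is not independent of the count. The genes under 1 peak share its score and width and are not independent values.

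For 17 TSSs the peak spanned no TSS of another histone gene with a promoter entry in either list, and its reach on each side was measured. It extended a median of 504 bp before the TSS in cKO and 667 bp in WT, and 579 bp after it in cKO and 575 bp in WT. The same was done for 6743 TSSs of other protein-coding genes whose peak spanned the TSS of no other such gene. There the medians were 475 bp before in cKO and 577 bp in WT, and 590 bp after in cKO and 680 bp in WT. These medians were taken for each list separately. Taken TSS by TSS, the median of cKO minus WT was -83 bp before and -77 bp after the histone TSSs. At the other TSSs it was -83 bp before and -71 bp after, so the histone TSSs were close to them on both sides. The cKO peak was shorter than the WT peak before the TSS at 14 of the 17 and after it at 12, against 83.7% of the other TSSs before and 78.3% after. Hist1h1c and Hist1h1d reached mostly downstream of the TSS, past the end of the gene in both lists (gene lengths of 725 and 776 bp). Hist1h2ac and Hist1h2bh reached mostly upstream, where their peaks touched Hist1h2bc and Hist1h3f, which have no promoter entry. Peaks over Hist3h2a and Hist1h2bm likewise touched Hist3h2bb and Hist1h2aj.

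**Figure D5:**
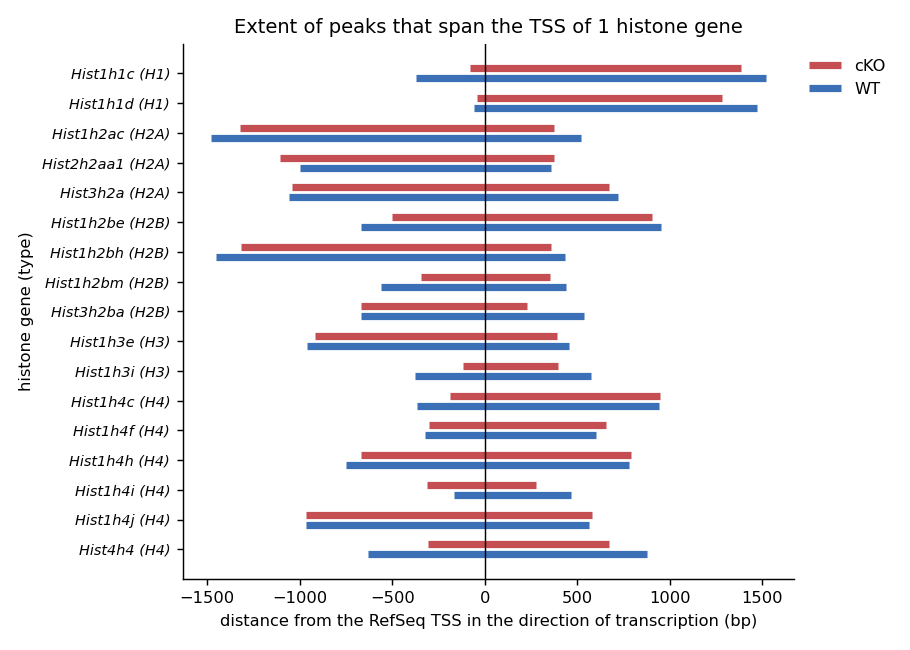
The x axis gives distance from the RefSeq TSS in the direction of transcription in bp, with the cKO peak in red above the WT peak in blue. Each row is a histone TSS whose peak spanned the TSS of no other histone gene with a promoter entry. The cKO bar ends closer to the TSS on the upstream side in 14 of the 17 rows and on the downstream side in 12. H1 genes have the longest reach downstream of the TSS, up to 1382 bp in cKO and 1521 bp in WT.

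Peaks were also set against the gene bodies. Of 61 protein-coding RefSeq histone genes under 1 kb long, 21 lay wholly inside a cKO peak and 30 wholly inside a WT peak, and 46 were touched by a cKO peak and 51 by a WT peak. The median share of the gene inside a peak was 74.6% in cKO and 93.7% in WT. Among 1523 other protein-coding genes under 1 kb, 7 lay wholly inside a cKO peak and 10 wholly inside a WT peak, and 30 were touched by a cKO peak and 36 by a WT peak. Of those 1523, 783 are olfactory receptor genes, which serve in sensory neurons, so they are not a like set.

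Factors that act on histone genes were read in the same way, by the symbols of the peaks. Over all 21900 protein-coding genes 39.3% had a promoter peak under their symbol in cKO, 46.6% in WT and 38.8% in both. Of 21 factors of histone transcription and 3′ end processing, 16 had a promoter peak in cKO, 16 in WT and 15 in both. Of their 29 WT peaks 20 had a cKO partner (69.0%, 50.8 to 82.7%), an interval that includes the 56.1% of all WT peaks. Among them were Casp8ap2 (FLASH), which acts in 3′ end processing, at percentile 85.0 in cKO and 98.0 in WT, Hinfp, which binds H4 site II, at 91.2 in cKO and 98.9 in WT, and Lsm10 and Lsm11, parts of the U7 particle, at 71.0 and 71.8 in cKO and 92.3 and 91.1 in WT. Of these factors' peaks, 4 of 21 in cKO and 10 of 29 in WT lay at or below the median of all scores. A promoter peak was listed for Sympk in cKO alone, but a WT peak under another name lay over it. For Pou2f1 a promoter peak was listed in WT alone, and Npat, Slbp and Zfp473 had no peak under their symbol in either list. Since a promoter can carry a neighbour's name, this does not show that these promoters were closed.

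Of 23 symbols, old and new, for histone variants made outside S phase, 5 had a promoter peak in cKO and 6 in WT, and 6 of 10 WT peaks were shared (60%, 31.3 to 83.2%), against the 56.1% of all WT peaks. H3f3b, which encodes H3.3, was at percentile 96.8 in cKO and 97.5 in WT, and H2afv, an H2A.Z gene, at 93.2 in cKO and 95.1 in WT. H2afz, the other H2A.Z gene, had no cKO peak, against a WT promoter peak at percentile 66.2. Of 22 histone chaperones, 17 had a promoter peak in both lists, none in 1 list alone, and 19 of 28 WT peaks were shared (67.9%, 49.3 to 82.1%), an interval that includes the 56.1% as well. Asf1b, which carries H3 and H4 in S phase, was at percentile 97.5 in cKO and 98.9 in WT, and Nasp, another H3 and H4 chaperone, at 95.7 in cKO and 96.0 in WT. H3f3b, H2afv, Asf1b and Nasp are among the stronger of their sets. At or below the median of all scores were 2 of 6 variant peaks in cKO and 4 of 10 in WT. For chaperone peaks the counts were 6 of 19 in cKO and 10 of 28 in WT. Chaf1a, Daxx, Ssrp1, Supt16 and Ubn1 had no peak under their symbol in either list.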

How the data were processed

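ATAC-seq peak lists of 1 cKO and 1 WT library of sorted Treg cells were used. The tools named, per the submitters' processing notes, are MACS2, BWA, FastQC and Trimmomatic, with build mm10. Not given in the sources used here are versions, caller settings, the annotation tool, any Tn5 shift and how duplicate and multi-mapped reads were treated. Peaks were listed per library. The authors deposited for each peak its position, width, a score of unnamed unit, an annotation class, 1 gene symbol and a distance to a TSS. The lowest score was 1.34 in the cKO list and 1.31 in the WT list. Read depth is unknown.

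Peaks were compared by an overlap of at least 1 bp with code that was checked on simulated intervals and against bedtools 2.31.1, with 0 peaks differing in either list. Scores were ranked within each list only. Intervals are Wilson 95% intervals. With 1 library per group no test was run. Coordinates are counted from 1 in mm10, the build of the RefSeq tables (GRCm38.p6), and histone genes were matched by symbol. One result on a marker gene is not reported here. Python 3.11.15, pandas 2.3.3, numpy 2.4.6, scipy 1.17.1 and matplotlib 3.10.9 were used. The members, gene lists, motifs and naming rule were chosen with earlier results of these data known. The rule named the 6 highest and 6 lowest promoter peaks by percentile and the 5 widest and 5 narrowest peaks of each list, every gene in 1 list alone, every peak outside promoters and every gene of a block with 10 or fewer peaks; genes named by TSS position were chosen after their values were seen. Alternatives were a stricter overlap, stronger or wider peaks only, promoters within 1 kb, all peaks of a block, clusters outside chromosome 13 and, added after seeing the data, peaks by TSS position.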

Additional observations from a re-analysis of the deposited data

How the results depend on the processing

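No paired analysis was possible because cKO and WT are 1 library each. Of 58 values under 8 alternatives, 44 stayed within the interval of the reported value, or within 1.5 times it for counts, and 14 did not. With peaks above the median score of their list, the median percentile of the histone peaks, ranked anew, was 36.9 in cKO and 63.3 in WT. With the strongest WT peaks in the number of the cKO list it was 67.9 in WT, and 19 of 23 WT histone peaks (82.6%) had a cKO partner. Both follow from the shorter lists. Without the chromosome 13 cluster 1 cKO and 2 WT peaks were left, so 1 gene had a promoter peak in each list, 50.0% of WT peaks and 100% of WT promoter peaks had a cKO partner, and the median WT percentile was 53.4. With every peak over a RefSeq histone TSS, chosen after seeing the data, 43 genes in cKO and 48 in WT had a promoter peak, 91.2% of WT peaks and 90.9% of WT promoter peaks had a cKO partner, and the median width was 1420.5 bp in cKO and 1513 bp in WT; this setting adds peaks under other names and drops peaks away from a TSS. Dropping the peaks away from a TSS while keeping to histone symbols gave 17 of 20 (85.0%). The share over all peaks was not taken under these settings. The values of 82.6%, 91.2%, 90.9% and 85.0% therefore do not show that histone peaks were shared more than others. The count of genes was not taken for all peaks of a block, since these include other genes. Unknown depth limits every absence of a peak.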
